A study of Mus musculus with 6 samples.

Results

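Neuropeptides are made as large precursor proteins that enter the regulated secretory pathway of neurons and endocrine cells. There, prohormone convertases cut them at basic residues, carboxypeptidase E trims the cut ends, and the products are stored in dense-core vesicles together with granins, acidic proteins that help these vesicles to form and to take up cargo. In the retina, peptides are made mainly by subsets of amacrine cells, the interneurons of the inner retina. Of 11339 genes with values, 10 genes grouped with this pathway are described here. These are the precursor genes *Cck* and *Tac1*, the granin genes *Chga*, *Chgb*, *Scg2* and *Scg3*, the processing genes *Pcsk2* and *Cpe*, the convertase gene *Pcsk6*, whose product acts mainly outside this pathway, and *Pcsk1n*, which encodes an inhibitor of a prohormone convertase. They were selected by name with the RPKM difference between *Mll1KO* and WT retinas already known, *Pcsk6* having been selected on that difference as one of the largest decreases. Their differences between the genotypes are therefore given as a description, without a test.

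Retinas were taken at P14, and each of 3 *Mll1KO* and 3 WT samples (replicates a, b and c) held the RNA of a pair of retinas. Both groups were of the C57Bl6/J strain. *Mll1KO* mice had the genotype MLL1 fl/fl with Chx10-Cre, in which LoxP sites flank exons 3 and 4 of both *Mll1* copies and Cre is made in retinal progenitor cells, some of which escape recombination. WT mice are labelled wild type, with neither allele named, so that effects of Cre and of the deletion cannot be told apart. MLL1 is a histone H3 lysine 4 methyltransferase, and the samples were made to compare the RNA of retinal cell types with and without it. The deposited unit is RPKM, the reads of a gene scaled to its length and to the size of the library, from which whole reads could be recovered. The WT libraries a, b and c held 23836033, 19777205 and 19323512 reads. Those of *Mll1KO* held 23348923, 19855963 and 17961097. Since the RNA came from whole retinas, fewer cells of a type and less RNA per cell cannot be told apart in any value that follows.

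*Mll1*, listed under its symbol *Kmt2a* (ENSMUSG00000002028, chr9:44803355-44881296, minus strand, GRCm38 as for all positions here), had 36.1, 36.9 and 34.6 RPKM in WT a, b and c. In *Mll1KO* a, b and c it had 22.9, 20.4 and 22.3 RPKM. Each *Mll1KO* library was thus below each WT library, and the log2(RPKM + 1) difference was -0.69 with a standard error of 0.05 (adjusted p = 2.77e-05 by limma). The floxed exons 3 and 4 hold 17.0% of the bases over which this RPKM was taken, and the other exons are not removed by Cre. The deleted exons were not measured on their own, so this RPKM does not check their loss. Across all genes, limma with Benjamini-Hochberg adjustment at 0.05 called 999 genes (8.81%) higher and 1644 genes (14.5%) lower in *Mll1KO*. The split depended on scaling, since TMM factors gave 1257 higher and 1163 lower genes and upper-quartile factors gave 1272 higher and 1140 lower genes. The total of 2643 was 1704 without WT b and 1757 without *Mll1KO* c. Lower genes numbered 1030 without WT b and 1053 without *Mll1KO* c, in place of 1644.

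Among the 10 genes, *Pcsk6* was lower in *Mll1KO* by more than a factor of 2, *Tac1*, *Scg2*, *Cpe*, *Chgb* and *Pcsk1n* were higher in each *Mll1KO* library than in each WT library, and *Cck*, *Chga*, *Scg3* and *Pcsk2* overlapped between the genotypes. The 5 genes above and the 1 gene below without overlap stand beside 14.6% of all genes with the 3 *Mll1KO* values above the 3 WT values and 26.5% with them below. Since the genes were selected on these values, nothing is read from that comparison. The median log2(RPKM + 1) difference was 0.20 over the 10 genes and -0.03 over all 11339 genes. All 10 passed the authors' filter on low counts, and the smallest number of recovered reads behind any of their values was 110, for *Cck* in WT b, which is the fewest that fit.

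**Figure D1:**
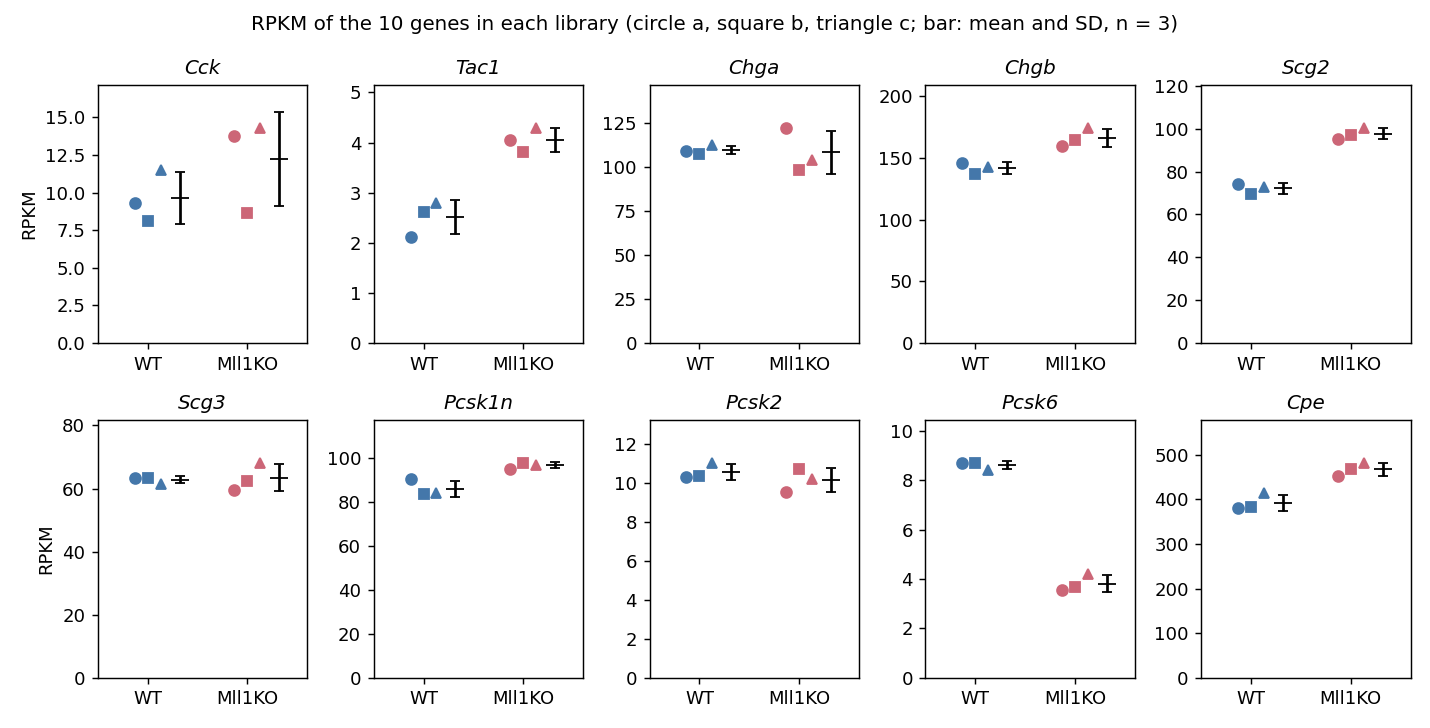
RPKM of each of the 10 genes (vertical axes, each from 0) in the 3 WT and the 3 *Mll1KO* libraries, with circles for replicate a, squares for b, triangles for c, and a bar for the mean and SD (n = 3). The *Pcsk6* points of *Mll1KO* lie between 3.55 and 4.20 RPKM against 8.43 to 8.72 RPKM in WT, while the *Chga* points of *Mll1KO* lie on both sides of those of WT.

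*Tac1* (ENSMUSG00000061762, chr6:7554879-7565834, plus strand) encodes the precursor of the tachykinins substance P and neurokinin A. Its RPKM was 2.12, 2.62 and 2.79 in WT a, b and c and 4.06, 3.81 and 4.29 in *Mll1KO* a, b and c. The lowest *Mll1KO* library thus had more *Tac1* RNA than the highest WT library. The mean was 2.51 ± 0.345 RPKM (SD, n = 3) in WT and 4.05 ± 0.242 RPKM (SD, n = 3) in *Mll1KO*, 61.5% above WT. On the log2(RPKM + 1) scale, which understates the change of weakly expressed genes, the difference was 0.53 (standard error 0.08), and limma-voom on recovered reads gave 0.71. *Tac1* was the weakest of the 10 genes in WT, with a level at percentile 9.06 of all genes, and it rested on 172 to 322 reads per library.

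*Cck* (ENSMUSG00000032532, chr9:121489824-121495694, minus strand) encodes the precursor of cholecystokinin, a peptide of gut and brain. Its RPKM was 9.31, 8.12 and 11.5 in WT a, b and c and 13.8, 8.68 and 14.3 in *Mll1KO* a, b and c. *Mll1KO* b lay within the WT range and the other *Mll1KO* libraries above it, so that the genotypes overlapped. The mean was 9.64 ± 1.71 RPKM (SD, n = 3) in WT and 12.2 ± 3.10 RPKM (SD, n = 3) in *Mll1KO*, and the log2(RPKM + 1) difference of 0.30 had a standard error of 0.17. *Cck* was the most variable of the 10 genes in both groups, with a coefficient of variation of 17.7% in WT and 25.3% in *Mll1KO*. The log2 difference was 0.51 without *Mll1KO* b, 0.18 without *Mll1KO* c and 0.19 without WT b. *Cck* rested on 110 to 220 reads per library at the smallest gene length that gives whole reads, and multiples of these reads would fit as well.

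*Scg2* (ENSMUSG00000050711, chr1:79434669-79440120, minus strand) encodes secretogranin II, a granin that is also the precursor of the peptide secretoneurin. Its RPKM was 74.4, 69.5 and 72.6 in WT a, b and c and 95.3, 97.3 and 100.4 in *Mll1KO* a, b and c. The libraries of each genotype lay close together, and the gap between the genotypes was wider than the range within either. The mean was 72.2 ± 2.49 RPKM (SD, n = 3) in WT and 97.7 ± 2.57 RPKM (SD, n = 3) in *Mll1KO*, 35.3% above WT. The log2(RPKM + 1) difference was 0.43 (standard error 0.04) and stayed between 0.41 and 0.47 over all alternatives.

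*Chgb* (ENSMUSG00000027350, chr2:132781278-132795079, plus strand) encodes chromogranin B. It had 145.9, 136.8 and 142.3 RPKM in WT a, b and c and 159.7, 164.7 and 174.2 RPKM in *Mll1KO* a, b and c. The genotypes did not overlap, and the mean in *Mll1KO* was 17.3% above WT, a log2(RPKM + 1) difference of 0.23 (standard error 0.05).

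*Chga* (ENSMUSG00000021194, chr12:102554969-102565028, plus strand) encodes chromogranin A, the founding granin. It had 109.3, 107.4 and 112.4 RPKM in WT a, b and c and 122.3, 98.4 and 104.3 RPKM in *Mll1KO* a, b and c. *Mll1KO* a was above all WT libraries and *Mll1KO* b and c were below them, and the SD was 12.4 RPKM in *Mll1KO* against 2.48 RPKM in WT. The log2(RPKM + 1) difference of -0.02 (standard error 0.07) was within its error and turned to 0.01 with TMM or upper-quartile factors, to 0.04 without *Mll1KO* b and to 5.3e-05 without *Mll1KO* c. Without *Mll1KO* a it was -0.11 (standard error 0.05). The ratio of *Chgb* to *Chga* RPKM was 1.33, 1.27 and 1.27 in WT a, b and c. In *Mll1KO* it was 1.31 in a, within the WT range, and 1.67 in both b and c, above it. Of the 2 chromogranin genes, *Chgb* was thus higher in every *Mll1KO* library than in every WT library, and *Chga* was not.

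*Scg3* (ENSMUSG00000032181, chr9:75643189-75684056, minus strand) encodes secretogranin III, which binds chromogranin A and carboxypeptidase E at the vesicle membrane. It had 63.3, 63.5 and 61.5 RPKM in WT a, b and c and 59.7, 62.5 and 68.2 RPKM in *Mll1KO* a, b and c. The *Mll1KO* values lay on both sides of the WT values. The log2(RPKM + 1) difference of 0.01 (standard error 0.05) was within its error and turned to -0.04 without *Mll1KO* c and to -0.00079 without WT c. *Scg2* and *Scg3* had similar RPKM in WT, with a ratio of *Scg2* to *Scg3* of 1.10 to 1.18, and the ratio was 1.47 to 1.598 in *Mll1KO*.

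*Pcsk6* (ENSMUSG00000030513, chr7:65861734-66050386, plus strand) encodes PACE4, a convertase of the same enzyme family as furin that cuts growth factor precursors and, unlike PC1/3 and PC2, acts mainly at the cell surface and in the extracellular matrix. Its RPKM was 8.69, 8.72 and 8.43 in WT a, b and c and 3.55, 3.66 and 4.20 in *Mll1KO* a, b and c. The highest *Mll1KO* library had less than the lowest WT library by more than 4 RPKM. The mean was 8.61 ± 0.160 RPKM (SD, n = 3) in WT and 3.80 ± 0.348 RPKM (SD, n = 3) in *Mll1KO*, 44.1% of WT, on at least 838 to 1066 reads in WT and 374 to 426 reads in *Mll1KO*. The log2(RPKM + 1) difference was -1.004 (standard error 0.06), and -1.19 with limma-voom and -1.16 with a pseudocount of 0.1.

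With all genes ordered by log2(RPKM + 1) difference, *Pcsk6* ranked 12 of 11339 from the lowest. Just before it stood *Six3os1*, a long noncoding RNA gene next to the homeobox gene *Six3* (18.0 RPKM in WT and 8.03 in *Mll1KO*, a log2 difference of -1.07), and *Islr2*, a gene for a neuronal membrane protein with leucine-rich repeats (9.41 and 4.01 RPKM, a log2 difference of -1.06). Just after it stood *Crym*, which encodes the thyroid hormone binding protein mu-crystallin (35.4 and 17.5 RPKM, a log2 difference of -0.98), and *Chrna3*, which encodes a subunit of nicotinic acetylcholine receptors (6.66 and 3.02 RPKM, a log2 difference of -0.93).

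*Pcsk2* (ENSMUSG00000027419, chr2:143546156-143816285, plus strand) encodes PC2, the prohormone convertase that makes many of the smaller peptide products. It had 10.3, 10.4 and 11.1 RPKM in WT a, b and c and 9.53, 10.7 and 10.2 RPKM in *Mll1KO* a, b and c. The genotypes overlapped, and the log2(RPKM + 1) difference of -0.05 (standard error 0.06) was within its error. *Pcsk2* and *Pcsk6* had similar levels in WT, where the ratio of *Pcsk2* to *Pcsk6* RPKM was 1.18 to 1.31. In *Mll1KO* the ratio was 2.44 to 2.93, above the WT range in every library.

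*Pcsk1n* (ENSMUSG00000039278, chrX:7919822-7924410, plus strand) encodes proSAAS, an inhibitor of the convertase PC1/3. It had 90.4, 83.9 and 84.2 RPKM in WT a, b and c and 95.3, 98.1 and 97.1 RPKM in *Mll1KO* a, b and c. The genotypes did not overlap, but the gap between the highest WT and the lowest *Mll1KO* library was smaller than the WT range. The mean in *Mll1KO* was 12.4% above WT, a log2(RPKM + 1) difference of 0.17 (standard error 0.04), the smallest among the 5 genes that were higher without overlap.

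*Cpe* (ENSMUSG00000037852, chr8:64592542-64693054, minus strand) encodes carboxypeptidase E, which removes the basic residues left by the convertases. It was by far the most abundant of the 10 genes, with 380.0, 383.7 and 413.9 RPKM in WT a, b and c and 453.5, 467.7 and 482.5 RPKM in *Mll1KO* a, b and c. Every *Mll1KO* library was above every WT library. The mean in *Mll1KO* was 19.2% above WT, a log2(RPKM + 1) difference of 0.25 (standard error 0.05). *Cpe* made up 42.5% to 45.0% of the summed RPKM of the 10 genes in WT and 44.6% to 46.0% in *Mll1KO*. That sum was 874.7 to 920.6 RPKM in WT and 1015.7 to 1059.8 RPKM in *Mll1KO*, and without *Cpe* it was 491 to 513.9 and 548 to 577.3 RPKM.

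In order of mean RPKM in WT, the genes were *Cpe*, *Chgb*, *Chga*, *Pcsk1n*, *Scg2*, *Scg3*, *Pcsk2*, *Cck*, *Pcsk6* and *Tac1*. The WT ranges of neighbours in this order overlapped for *Pcsk2* and *Cck* and for *Cck* and *Pcsk6*, so that *Cck* is not ordered beyond its spread against either, and the other neighbours were apart. The mean RPKM in WT spanned from 392.5 for *Cpe* to 2.51 for *Tac1*. In *Mll1KO* the first 3 places were the same, *Scg2* stood ahead of *Pcsk1n*, *Cck* ahead of *Pcsk2*, and *Tac1* ahead of *Pcsk6*, which came last. *Scg2* overlapped *Pcsk1n* and *Chga* in *Mll1KO*, as did *Cck* and *Pcsk2*, and *Tac1* and *Pcsk6* did too. *Chga*, *Chgb*, *Scg2*, *Scg3*, *Pcsk1n* and *Cpe* were thus expressed at levels several times above those of *Cck*, *Tac1*, *Pcsk2* and *Pcsk6* in each library.

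The genes whose log2(RPKM + 1) over the 6 libraries was most like that of *Pcsk6* were *Myo10*, an unconventional myosin gene, with a Pearson r of 0.999, and *Kit* (a receptor tyrosine kinase) and *Bahcc1*, both with an r of 0.998. For *Tac1* they were *Klhl3* (r = 0.999), *Slc2a8* (r = 0.997) and *Abhd3* (r = 0.996). *Myo10*, *Kit* and *Bahcc1* had log2 differences of -0.55, -0.67 and -1.33. *Klhl3*, *Slc2a8* and *Abhd3* had log2 differences of 0.59, 0.14 and 0.52. With 6 libraries in 2 groups, such values mostly follow the difference between the groups, and r was above 0.98 for 200 genes with *Pcsk6* and for 44 genes with *Tac1*.

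In the GENCODE annotation, 7 of the 10 genes share no exon bases with another gene. *Pcsk1n* shares 6.16% of its exon bases with *Eras* and *Pcsk2* 4.54% with *Pcsk2os1* and *Pcsk2os2*, all on the opposite strand, and *Pcsk6* shares 3.01% with *Gm45213* on its own strand. Whether counting used strand was not given in the sources used here, and a share of reads from these partners cannot be told apart. The genes lie on 8 chromosomes, with *Chgb* and *Pcsk2* both on chromosome 2 and *Cck* and *Scg3* both on chromosome 9. The genes that were higher without overlap therefore lie at separate places in the genome.

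RefSeq promoter windows of GRCm38.p6, from 250 bases before to 50 bases after the start that RefSeq gives each gene, were matched by symbol for 9 of the 10 genes (all but *Cpe*). The RefSeq start differs from the GENCODE start for some of them, and the windows of *Chgb* and *Pcsk6* lie wholly within the GENCODE genes. The windows were searched on both strands for the cAMP response element TGACGTCA, for its shorter form TGACG, which the longer one contains once on each strand, for TATAAA and for the GC box GGGCGG. The element TGACGTCA was found in *Scg2*, 68 bases before the start, and in *Chgb*, 72 bases before the start, and in 1.79% of 32851 promoter windows. The letters TGACG were found in 7 of the 9 windows (*Scg2*, *Chgb*, *Chga*, *Scg3*, *Cck*, *Tac1* and *Pcsk2*) and in 20.8% of all windows. *Pcsk6*, which was lower in *Mll1KO*, and *Pcsk1n*, which was higher, had no match to these letters in the window. TATAAA was found in *Chga* only (13.6% of all windows), and GGGCGG in 6 of the 9 windows (35.7% of all windows), all but those of *Scg2*, *Scg3* and *Cck*. A match is a description of the window and not a measured site.

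The promoter windows of *Scg2* (chr1:79439977-79440276, minus strand), *Chgb* (chr2:132781392-132781691, plus strand), *Tac1* (chr6:7554811-7555110, plus strand) and *Pcsk6* (chr7:65861886-65862185, plus strand) are shown because these genes hold the full element, the greatest increase and the greatest decrease among the 10 on the log2(RPKM + 1) scale. Capitals mark TGACG and its reverse complement CGTCA, which together make up the full element in *Scg2* and *Chgb*.
*Scg2*: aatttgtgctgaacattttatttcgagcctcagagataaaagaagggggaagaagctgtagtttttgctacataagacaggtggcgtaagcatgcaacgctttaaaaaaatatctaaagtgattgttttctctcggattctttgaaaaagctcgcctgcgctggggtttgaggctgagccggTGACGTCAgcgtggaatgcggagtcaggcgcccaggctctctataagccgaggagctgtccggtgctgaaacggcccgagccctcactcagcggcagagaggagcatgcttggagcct
*Chgb*: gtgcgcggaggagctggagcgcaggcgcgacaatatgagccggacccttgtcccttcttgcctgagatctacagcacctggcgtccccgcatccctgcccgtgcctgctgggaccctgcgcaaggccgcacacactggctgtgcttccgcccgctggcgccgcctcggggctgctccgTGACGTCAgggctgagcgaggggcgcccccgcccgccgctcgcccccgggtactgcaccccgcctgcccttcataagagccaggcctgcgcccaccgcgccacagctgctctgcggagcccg
*Tac1*: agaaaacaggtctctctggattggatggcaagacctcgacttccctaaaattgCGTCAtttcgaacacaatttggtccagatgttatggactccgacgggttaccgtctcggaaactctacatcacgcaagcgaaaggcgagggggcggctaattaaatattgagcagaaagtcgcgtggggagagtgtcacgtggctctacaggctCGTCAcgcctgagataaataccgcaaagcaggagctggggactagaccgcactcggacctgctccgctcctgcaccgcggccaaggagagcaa
*Pcsk6*: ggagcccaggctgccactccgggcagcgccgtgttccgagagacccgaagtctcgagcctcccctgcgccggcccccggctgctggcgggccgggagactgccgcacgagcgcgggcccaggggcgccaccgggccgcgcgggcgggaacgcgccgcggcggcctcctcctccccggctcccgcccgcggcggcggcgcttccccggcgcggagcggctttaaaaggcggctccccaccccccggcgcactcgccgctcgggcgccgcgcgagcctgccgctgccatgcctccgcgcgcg
In *Tac1* the capitals begin 197 and 43 bases before the start. The *Pcsk6* window has no capitals, and 81.7% of its bases are G or C, against 76.3% in *Pcsk2*, 72.7% in *Chgb*, 50.7% in *Scg2* (the lowest of the 9) and a median of 52.7% over all windows.

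The other genes of the pathway were taken from 4 lists that hold none of the 10, and they were tested with limma across all genes. Of 101 genes in the lists, 57 had values, of which 8 were called higher and 8 lower in *Mll1KO*, or 16 in all, and 41 were not called. That is 14.04% of the 57 in each direction, beside 8.81% higher and 14.5% lower of all genes. The split depended on scaling here too, with 10 genes higher and 7 lower with TMM factors and 11 higher and 6 lower with upper-quartile factors. Lower calls numbered 5 without WT c and 5 without *Mll1KO* b. The list medians of the log2(RPKM + 1) difference were -0.09 for peptide precursors, -0.04 for granins and peptide processing, -0.01 for dense-core vesicles and -0.02 for peptide receptors and peptidases, all close to the -0.03 of all genes. Called genes went in both directions in 3 of the 4 lists.

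**Figure D2:**
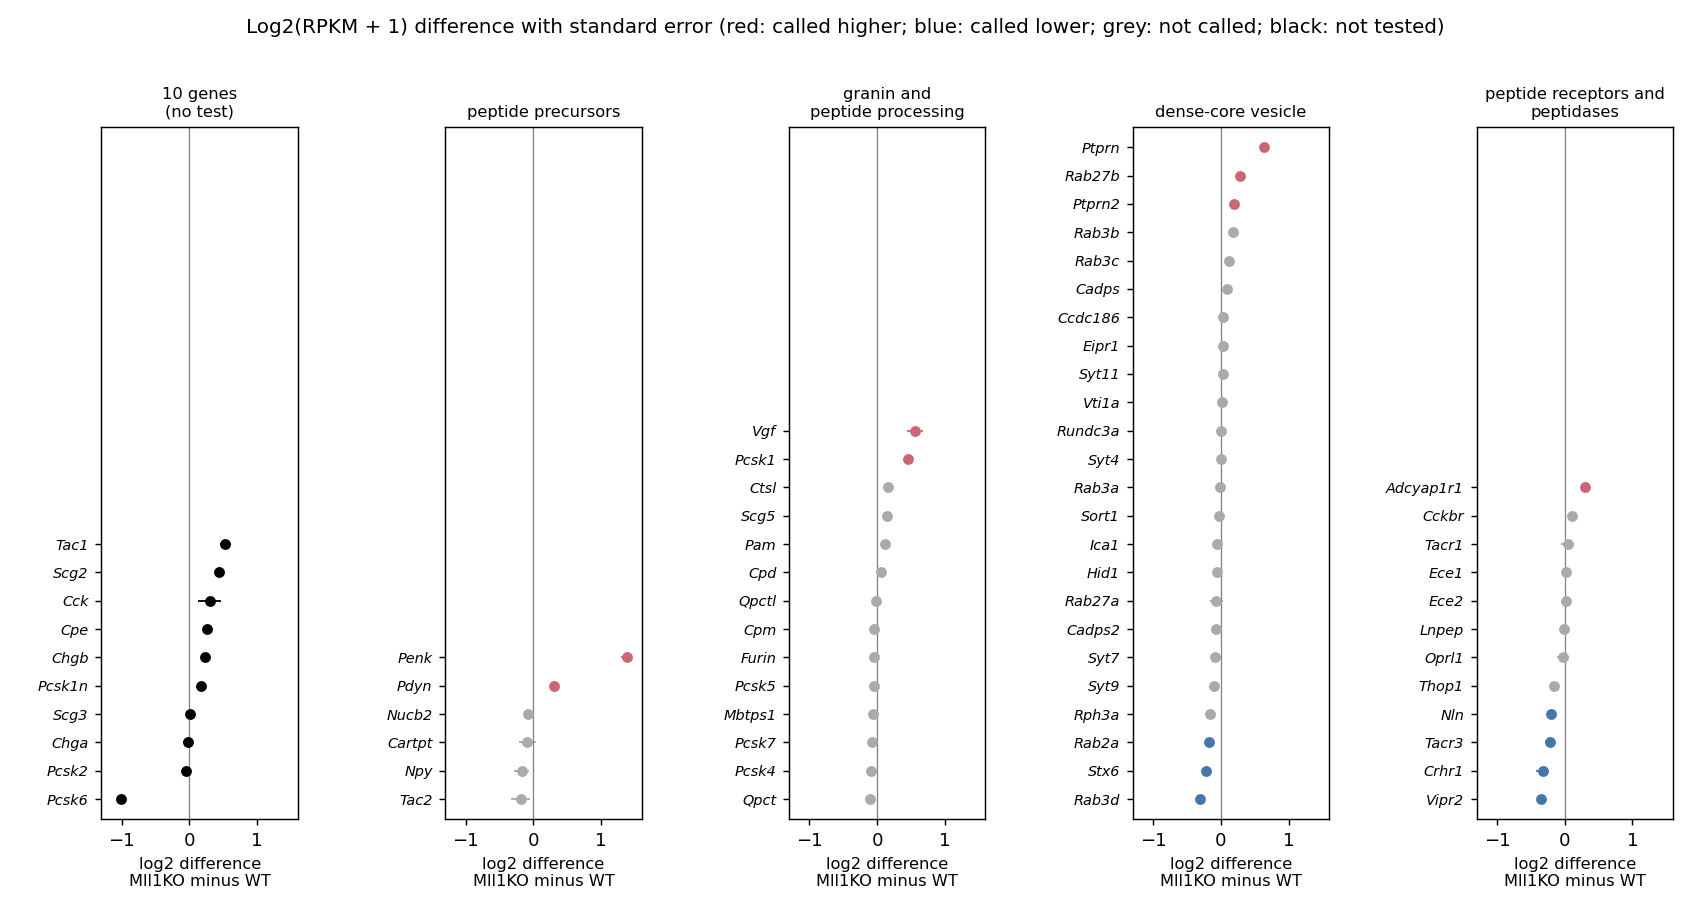
Difference in log2(RPKM + 1) between *Mll1KO* and WT (horizontal axes, above 0 when higher in *Mll1KO*) with its standard error for the 10 genes and for the genes of the 4 lists with values (rows), except 1 processing gene that is not shown. *Penk* stands furthest to the right at 1.38 and *Pcsk6* furthest to the left at -1.004, and colours mark genes called by limma in the lists, while the 10 genes were not tested.

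Of 24 peptide precursor genes, 6 had values. *Penk*, which encodes proenkephalin, the source of the opioid enkephalins, rose from 7.11, 6.56 and 8.17 RPKM in WT a, b and c to 18.7, 20.5 and 22.5 RPKM in *Mll1KO* a, b and c. All 3 *Mll1KO* libraries were above 2 times the highest WT library, and the log2(RPKM + 1) difference was 1.38 (standard error 0.08, limma adjusted p = 8.87e-06). *Pdyn*, the precursor gene of the opioid dynorphins, also rose, from a mean of 3.86 ± 0.149 to 5.01 ± 0.162 RPKM (log2 difference 0.31, limma adjusted p = 0.00295, with the 3 *Mll1KO* values above the 3 WT values; SD, n = 3). *Npy*, the most abundant of the list by the mean in WT, had 53.9 ± 6.10 RPKM in WT and 48.0 ± 8.09 RPKM in *Mll1KO* (SD, n = 3), which limma did not call (adjusted p = 0.314). None of the 6 was called lower by limma or limma-voom, and 0 were lower at an unadjusted p under 0.05.

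Of 16 granin and processing genes, 15 had values, of which limma called 2 higher and 1 lower. *Vgf*, a further granin-like precursor gene, rose from 13.8, 12.8 and 13.6 RPKM in WT a, b and c to 24.8, 16.2 and 20.4 RPKM in *Mll1KO* a, b and c. The *Mll1KO* libraries were all above WT but spread widely, and the log2(RPKM + 1) difference was 0.56 (standard error 0.12, limma adjusted p = 0.00808). *Pcsk1*, which encodes PC1/3, the target of the *Pcsk1n* product, rose from 2.15 ± 0.111 to 3.34 ± 0.184 RPKM (SD, n = 3; log2 difference 0.46, limma adjusted p = 0.000476), with the 3 *Mll1KO* values above the 3 WT values. *Scg5*, which encodes the PC2 chaperone 7B2 and is the most abundant of the list in WT, had 62.0 ± 2.95 RPKM in WT and 69.1 ± 5.73 RPKM in *Mll1KO* (SD, n = 3). It was not called (limma adjusted p = 0.101), but was called without *Mll1KO* a (adjusted p = 0.0222, in a range of 0.0222 to 0.292 over the alternatives). The convertase gene *Pcsk1* was thus called higher, while *Pcsk6*, selected for its decrease, and *Pcsk2*, within its error, were not tested. Named after their values were seen, *Pcsk4*, *Pcsk5*, *Pcsk7*, *Furin* and *Mbtps1* were not called by limma, with log2 differences of -0.09 to -0.05. A further convertase gene of the list is left out of this comparison.

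Of 25 dense-core vesicle genes, 24 had values, of which limma called 3 higher and 3 lower. *Ptprn*, which encodes the vesicle membrane protein IA-2, rose from 35.2, 32.5 and 34.2 RPKM in WT a, b and c to 59.1, 54.4 and 47.6 RPKM in *Mll1KO* a, b and c. The log2(RPKM + 1) difference was 0.64 (standard error 0.07, limma adjusted p = 0.000257), and no libraries overlapped. Its relative *Ptprn2* rose from 14.04 ± 0.539 to 16.2 ± 0.635 RPKM (SD, n = 3; log2 difference 0.20, limma adjusted p = 0.0172, the 3 *Mll1KO* values above the 3 WT values). That call was lost without WT b (adjusted p = 0.0741) and without *Mll1KO* b (adjusted p = 0.0616), in a range of 0.00506 to 0.0741 over the alternatives. *Rab27b*, a small GTPase of vesicle exocytosis, rose as well (log2 difference 0.28, limma adjusted p = 0.00795, higher in 3 of 3 *Mll1KO* libraries).

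The lower genes of the dense-core vesicle list were *Rab3d* (log2 difference -0.30, limma adjusted p = 0.00209), *Stx6* (-0.23, limma adjusted p = 0.00444) and *Rab2a* (-0.17, limma adjusted p = 0.0119), with all 3 *Mll1KO* libraries below all 3 WT libraries for each. They encode a further vesicle GTPase, a SNARE of the trans-Golgi network and a GTPase of early secretory traffic. *Rab3a*, the most abundant gene of the list and a GTPase of synaptic vesicles as well, had 195.9 ± 9.58 RPKM in WT and 193.7 ± 5.75 RPKM in *Mll1KO* (SD, n = 3; limma adjusted p = 0.848). Upwards calls in the list numbered 5 with TMM factors, 6 with upper-quartile factors, 2 without WT b and 2 without *Mll1KO* b, in place of 3.

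Of 36 peptide receptor and peptidase genes, 12 had values, of which limma called 1 higher and 4 lower. *Adcyap1r1*, which encodes the PACAP receptor PAC1, rose from 1.83 ± 0.0471 to 2.49 ± 0.227 RPKM (SD, n = 3; log2 difference 0.30, limma adjusted p = 0.006, higher in 3 of 3 libraries). *Vipr2*, a receptor gene for VIP and PACAP and the most abundant of the list in WT but not in *Mll1KO*, fell from 16.5, 17.0 and 16.0 RPKM in WT a, b and c to 12.8, 12.4 and 12.9 RPKM in *Mll1KO* a, b and c. Its log2(RPKM + 1) difference of -0.35 (standard error 0.04, limma adjusted p = 0.000514) passed the threshold under all alternatives.

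The remaining lower calls were weaker. *Crhr1*, a receptor gene for corticotropin-releasing hormone, had a log2 difference of -0.32 (limma adjusted p = 0.0369, with the genotypes overlapping), *Tacr3*, the neurokinin B receptor gene, one of -0.22 (limma adjusted p = 0.0406), and the peptidase gene *Nln* one of -0.20 (limma adjusted p = 0.0221), the last 2 with 3 of 3 *Mll1KO* libraries below WT. *Crhr1* lost its call with upper-quartile factors (adjusted p = 0.0523) and without WT b, WT c, *Mll1KO* b or *Mll1KO* c, in a range of 0.00598 to 0.125 over the alternatives. *Tacr3* lost it with TMM or upper-quartile factors and without WT a, WT c, *Mll1KO* a or *Mll1KO* b, in a range of 0.0229 to 0.122. *Nln* lost it without WT b, WT c, *Mll1KO* b or *Mll1KO* c, in a range of 0.0234 to 0.0814. Lower calls in this list therefore numbered 1 or 2, in place of 4, under 6 alternatives, and upwards calls 2 without WT a. The *Tac1* receptor gene *Tacr1* and the *Cck* receptor gene *Cckbr*, named after their values were seen, had log2 differences of 0.04 and 0.11, and limma called neither (adjusted p = 0.782 and 0.23).

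Markers of retinal cell types, read from short lists of known genes, moved with genotype as well. In the amacrine list, limma called 3 genes higher and 4 lower of 12 with values (*Th* had none), with a median log2 difference of 0.15. The summed RPKM of the amacrine list was 361.8, 339.0 and 359.5 in WT a, b and c and 359.5, 375.2 and 398.6 in *Mll1KO* a, b and c, and that of its most abundant gene, *C1ql1*, was 94.2 to 103.8 in WT and 104.6 to 115.8 in *Mll1KO*. *C1ql2* had the highest difference of the list (0.35, limma adjusted p = 0.00612) and *Gad2*, which encodes a GABA-synthesizing enzyme, the lowest (-0.49, limma adjusted p = 0.00165). Named after their values were seen, the other lower calls were the transcription factor genes *Tfap2a* (-0.33), *Tfap2b* (-0.29) and *Tfap2c* (-0.26). The other higher calls were *Gad1* (0.30) and *Slc6a9* (0.24). Upwards calls in the amacrine list numbered 7 with TMM or upper-quartile factors and 5 without WT c or *Mll1KO* b, in place of 3. Of the 12 genes, 7 were higher in every *Mll1KO* library than in every WT library and 4 were lower in every one, while the sum of the list overlapped between the genotypes. The part of amacrine cell number in the levels of the 10 genes was not tested.

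Of the other inner retina lists, limma called 8 of 9 ganglion genes lower (*Pou4f3* had no values). The sum of the ganglion list was 570.8, 530.8 and 558.4 RPKM in WT a, b and c and 449.7, 399.4 and 372.3 RPKM in *Mll1KO* a, b and c, and *Sncg* was its most abundant gene in WT but not in *Mll1KO*. Of the horizontal list, 3 of 4 genes were called lower (*Lhx1* and *Gja10* had no values), and the sum, to which *Calb1* gave most, was 17.6, 18.3 and 17.9 RPKM in WT a, b and c and 13.96, 13.48 and 15.14 RPKM in *Mll1KO* a, b and c. Of the bipolar list, 6 of 11 genes were called lower, and the sum was 534.5, 528.7 and 519.9 RPKM in WT a, b and c and 449.8, 444.2 and 454.6 RPKM in *Mll1KO* a, b and c. Each of these sums was lower in every *Mll1KO* library than in every WT library. *Pcsk6* was lower along with them, while *Tac1*, *Scg2* and *Cpe* were higher, and the part of inner retina cell number in either was not tested.

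Of the rod list, 8 of 11 genes were called higher and 1 lower, and the sum was 14281, 13293 and 13737 RPKM in WT a, b and c and 17412, 17603 and 17111 RPKM in *Mll1KO* a, b and c. Such levels of rod genes mark the tissue as retina, as its label says. Of the cone list, 7 of 9 genes were called higher and 1, *Opn1sw*, lower, which was the most abundant by the mean in WT but not in *Mll1KO*, and the sum was 345.9, 361.0 and 376.3 RPKM in WT a, b and c and 414.9, 433.1 and 452.8 RPKM in *Mll1KO* a, b and c. Of the Muller glia list, 5 of 9 genes were called higher and 1 lower, and the sum, to which *Glul* gave most, was 1333, 1323 and 1454 RPKM in WT a, b and c and 1658, 1729 and 1703 RPKM in *Mll1KO* a, b and c. *Cpe*, *Chgb*, *Scg2*, *Pcsk1n* and *Tac1* were higher along with these lists, and the part of cell composition in that was not tested.

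Of the astrocyte list, both genes with values, *Gfap* and *S100b*, were called higher (log2 differences 0.97 and 0.40, while *Pax2* had no values). The sum was 7.82, 8.56 and 8.34 RPKM in WT a, b and c and 15.8, 14.6 and 14.1 RPKM in *Mll1KO* a, b and c. RNA of these genes from astrocytes and from Muller glia cannot be told apart here. Of vascular endothelium genes, limma called 3 of 5 lower, and the sum, to which *Kdr* gave most, was 79.9, 78.6 and 76.5 RPKM in WT a, b and c and 59.3, 52.0 and 53.5 RPKM in *Mll1KO* a, b and c. None of 4 microglia genes was called by limma or limma-voom, and 0 had an unadjusted p under 0.05 (*C1qa*, *P2ry12* and *Tmem119* had no values). Their sum, to which *C1qb* gave most, was 17.1, 17.2 and 16.7 RPKM in WT a, b and c and 15.8, 17.4 and 18.3 RPKM in *Mll1KO* a, b and c. *C1qb* was called lower without *Mll1KO* c (adjusted p = 0.0495, in a range of 0.0495 to 0.485 over the alternatives). The part of these cells in the levels of the 10 genes was not tested.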

How the data were processed

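Messenger RNA was taken from P14 retinas of 3 *Mll1KO* and 3 WT samples, depleted of ribosomal RNA and sequenced as single-end reads. The authors aligned the reads with STAR 2.0.4b and counted them per gene with featureCounts 1.45 of Subread. They kept genes with a CPM above 5 in at least 5 samples. A gene above that level in the samples of a single genotype only would thus have no values. The submitters' processing notes name the build mm10. The authors turned those counts into the deposited RPKM with edgeR (3.17.9 in the processing notes). Columns with the authors' own fold changes and p-values were not used.

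The table had 11404 lines for 11339 genes, 59 gene IDs being repeated with equal values, and 18 symbols turned into dates were restored by gene ID. Of the IDs, 11329 matched GENCODE vM21. Library totals and gene lengths that make the RPKM of a gene whole reads within 0.05 were searched for, and 100% of genes were whole in all 6 libraries. Lengths were searched for to this end, so the share is partly fixed by the search. The GENCODE exon length fitted for 53.4% of matched genes and was kept there. The smallest fitting length was taken otherwise, so that reads of other genes, *Cck*, *Scg3*, *Chga*, *Pcsk6* and *Cpe* among them, are the fewest that fit. For 699 genes, a length other than multiples of the smallest was possible too. On these reads 98.4% of each library lay on listed genes, and no pair of replicates agreed within sampling noise. The methods call the samples of a genotype biological replicates, without saying whether each came from its own animal, and p-values measure the spread between these samples.

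Genotypes were compared with limma 3.58.1 in R 4.3.3 on log2(RPKM + 1) with a variance trend, two-sided, with Benjamini-Hochberg adjustment over 11339 genes at 0.05. The step was tested on simulated data. The alternatives were limma-voom on recovered reads, TMM and upper-quartile factors, a pseudocount of 0.1, a mean RPKM of at least 1, a replicate block, and leaving out each library. The 10 genes, the 4 pathway lists and the 12 marker lists (amacrine, ganglion, horizontal, bipolar, rod, cone, Muller glia, astrocyte, microglia, vascular endothelium, retinal pigment epithelium and lens) were chosen with earlier results of these data known. Genes were named by rule: the 10 genes and *Kmt2a*, up to 4 called genes per direction and the most abundant gene of each pathway list, the most abundant, highest and lowest gene of each marker list, 2 neighbours of *Pcsk6* in rank on each side, and the 3 genes most like *Pcsk6* and *Tac1*. Some genes that this rule takes are not reported here, though the counts and sums of their lists hold them. Python 3.11.15 with numpy 2.4.6, pandas 2.3.3 and matplotlib 3.10.9 did the rest.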

Additional observations from a re-analysis of the deposited data

How the results depend on the processing

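The number of changed genes was 2643 and ranged from 1704 (without WT b) to 2536 (without *Mll1KO* a) when one library was left out. It was 2903 with limma-voom, 2420 with TMM factors, 2412 with upper-quartile factors, 2650 with a pseudocount of 0.1 and 2627 with a mean RPKM of at least 1. The count of changed peptide pathway genes, 16, was 12 to 18 without one library and 14 to 18 otherwise. The median log2 difference of the 10 genes, 0.20, was 0.17 to 0.22 without one library and 0.20 to 0.23 otherwise. Of the 10 genes, *Pcsk6*, *Tac1*, *Scg2*, *Cpe*, *Chgb*, *Pcsk1n*, *Cck* and *Pcsk2* kept their direction under all alternatives, and *Chga* and *Scg3* did not. Scaling moved the median of all genes by 0.03.

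Over all genes, the deviations of same-letter libraries correlated at -0.0395 (a), -0.190 (b) and -0.00714 (c). No library had its highest correlation with its own letter. Correlations over all genes cannot exclude that samples of a letter shared a litter or a batch. With the letter as a replicate block, 2242 genes and 14 pathway genes were changed, the median of the 10 genes was 0.20, and *Crhr1*, *Tacr3* and *Nln* were not called (limma adjusted p = 0.0725, 0.0515 and 0.0529). The standard error of the *Cck* difference was 0.08 with this block and 0.17 without it. Depth limits *Tac1*, with as few as 172 reads, and *Cck*, with at least 110.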

Other observations

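Genes of the retinal pigment epithelium, which lies behind the retina, varied between libraries of both genotypes. *Pmel* had 57.1, 15.1 and 99.4 RPKM in WT a, b and c and 9.37, 34 and 10.98 RPKM in *Mll1KO* a, b and c. The summed RPKM of the 5 listed genes with values was 218.8, 114.8 and 328.4 in WT and 102.9, 223 and 107.8 in *Mll1KO*, and *Ttr* was the most abundant, while *Rpe65*, *Lrat*, *Best1* and *Mlana* had no values. Neither limma nor limma-voom called any of the 5, with 0 higher and 1 lower at an unadjusted p under 0.05, but *Pmel* was called lower without WT b (adjusted p = 0.0123) and without *Mll1KO* b (adjusted p = 0.0451), in a range of 0.0123 to 0.311, and *Ttr* without *Mll1KO* b (adjusted p = 0.0313, in a range of 0.0313 to 0.753). Without WT b, 3 of the 5 were called lower, *Pmel* and, named after their values were seen, *Dct* (adjusted p = 0.0362, in a range of 0.0362 to 0.694) and *Tyrp1* (adjusted p = 0.0153, in a range of 0.0153 to 0.972). The part of this tissue in the levels of the 10 genes was not tested.

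Of 6 lens genes, *Cryaa* alone had values, with 6.54, 6.61 and 7.51 RPKM in WT a, b and c and 32.1, 12.4 and 7.28 RPKM in *Mll1KO* a, b and c. It was not called by limma or limma-voom (limma adjusted p = 0.0949, with 1 gene higher at an unadjusted p under 0.05), but was called higher without *Mll1KO* c (adjusted p = 0.0146, in a range of 0.0146 to 0.198).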
